A study of Homo sapiens with 3 samples.

Results

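SHOT-RNAs (sex hormone-dependent tRNA-derived RNAs) were knocked down with small interfering RNAs (siRNAs) in LNCaP, a human prostate cancer cell line that responds to androgen, and 2 knockdowns that target opposite ends of the same aspartate tRNA are compared here. The 5'-Asp knockdown (5'-Asp KD) was directed at the 5' fragment of tRNA-AspGUC and used 20 nM siRNA. The 3'-Asp knockdown (3'-Asp KD) was directed at the 3' fragment of the same tRNA and used 10 nM siRNA. Each was hybridised on 1 two-colour array together with LNCaP cells given an siRNA to Renilla luciferase (R-Luc), a gene that human cells lack, and cells were harvested after 72 h. All groups were LNCaP cells in serum-containing medium, and 2 of the 3 arrays of the series enter the comparison. The remaining array, a knockdown of the 5' fragment of tRNA-LysCUU (5'-Lys KD, 20 nM), is set beside them. Dose and fragment go together on the Asp arrays and cannot be told apart. With 1 array per knockdown no test was possible, so "higher" and "lower" describe these arrays.

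SHOT-RNAs are pieces of mature transfer RNAs. The ribonuclease angiogenin cuts the tRNA in its anticodon loop, and sex hormone signalling raises the amount of the pieces in hormone-dependent prostate and breast cancer cells. The 5' piece runs from the start of the tRNA to the anticodon and the 3' piece carries the rest with the end that accepts the amino acid, so each needs an siRNA of its own. Levels of the targeted fragments were not analysed here, and how far each was depleted is therefore unknown.

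Values are deposited intensities in a first and a second signal column per array. A gene's log2 ratio is the first over the second column, averaged over its probes and centred on the array's median, and the difference is the 5'-Asp ratio minus the 3'-Asp ratio on the log2 scale. Genes count as measured when their mean log2 signal over 6 columns was at or above the 50th percentile, a log2 signal of 7.03, which held for 10200 of 20399 named genes. The direction is not settled. The labels put every knockdown in Cy3 and R-Luc in Cy5, which makes the first column the knockdown if the columns hold the same dyes on all arrays. The deposited column names agree for the 5'-Lys array but give the first column to the control on both Asp arrays. Both Asp arrays turn together, so the size of each difference between them holds under either reading and its sign turns. The 5'-Lys array does not turn, so the sign of its ratios can be set against the Asp arrays under the dye labels only, and 5'-Lys values are given beside the others without comparison. Results are therefore worded by column: a ratio "lower on the 5'-Asp array" means relatively less knockdown signal there by the dye labels, and relatively more by the column names.

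Identity and quality of the arrays were as follows. All 8 LNCaP markers that could be analysed were measured, between the 72.4th and 98.4th percentile of signal, while 3 of 10 markers of prostate lines without androgen receptor and 1 of 9 markers of blood and stroma passed the filter. The summed signal of the LNCaP markers was 112599 and 117304 in the first and second column of the 5'-Asp array and 93821 and 102982 on the 3'-Asp array. For the markers of other prostate lines these sums were 1700.2 and 1189.7 on the 5'-Asp array and 2409 and 2516 on the 3'-Asp array, and for blood and stroma 186 and 130.4 on the 5'-Asp array and 203 and 178 on the 3'-Asp array. The part of these markers in the results was not tested. Both columns of an array had close median signals, 70.7 and 70.9 on the 5'-Asp array and 79.7 and 80.9 on the 3'-Asp array. The signals printed below are not scaled between arrays, whereas ratios and column differences are centred. The nearest measure of error was the SD of the difference between probes of 1 gene, with a median of 0.14 over the 3086 genes with more than 1 probe. Variation between arrays or between cultures is not part of it.

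Most genes had similar ratios on both Asp arrays. The difference had an SD of 0.30 over the measured genes, a 5th percentile of -0.47 and a 95th percentile of 0.49. Ratios were at least 2-fold apart for 72 genes, 0.706% of those measured. Of these, 37 genes (0.363%) had a higher and 35 genes (0.343%) a lower ratio on the 5'-Asp array. At 1.5-fold, 576 genes (5.65%) were apart, 296 (2.9%) higher and 280 (2.75%) lower on the 5'-Asp array. Which array's ratio lay farther from 0 does not depend on the sign: it was the 5'-Asp ratio for 47 of the 72 genes and the 3'-Asp ratio for 25. Both ratios lay on opposite sides of 0, by at least 0.32 each on the log2 scale, for 20. Over all measured genes the 5'-Asp array had the wider ratios, with an SD of 0.33 against 0.30 on the 3'-Asp array. The share of all measured genes with the 5'-Asp ratio farther from 0 was not counted, nor the share with ratios on opposite sides. Choosing genes by the difference favours opposite sides.

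**Figure D1:**
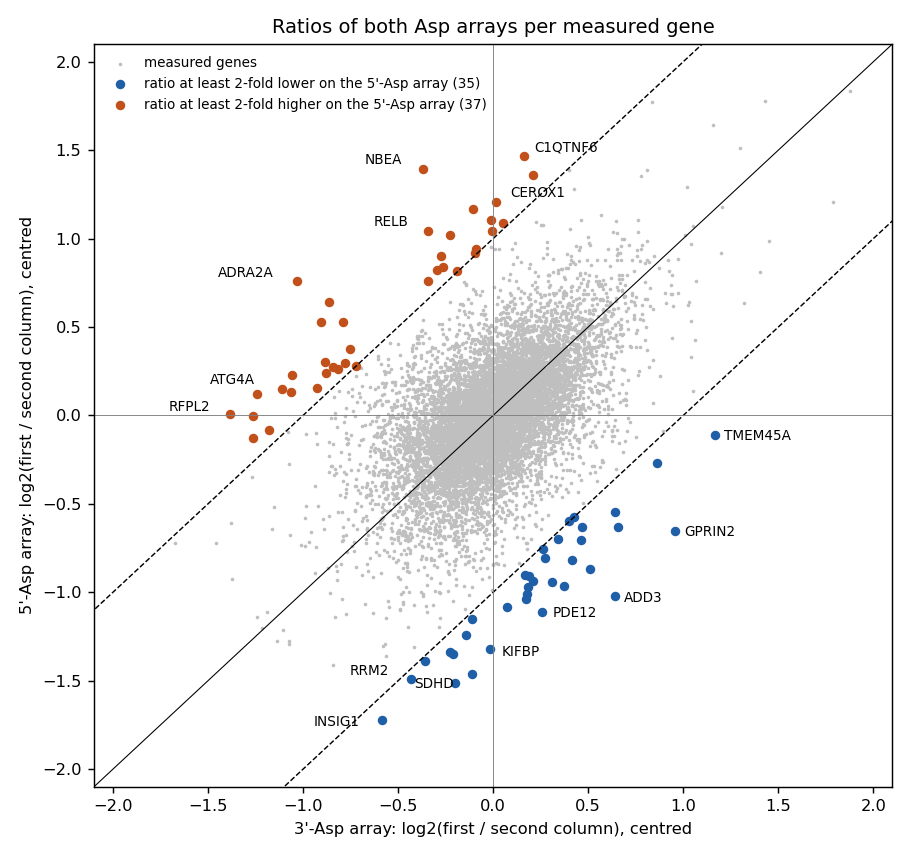
Centred log2 ratio (first over second signal column) of each measured gene on the 3'-Asp array (horizontal axis) and the 5'-Asp array (vertical axis), 1 array each. Dashed lines mark a 2-fold difference, blue points are the 35 genes lower and orange points the 37 genes higher on the 5'-Asp array; blue points lie mostly far below 0 on the vertical axis and near 0 on the horizontal one.

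The 35 genes with a lower ratio on the 5'-Asp array differed mostly on that array and in its first column. For 30 of them the 5'-Asp ratio was the one farther from 0, on the array whose ratios were wider over all measured genes. The first column changed more between the arrays than the second for 33 of 35, with median column differences (5'-Asp minus 3'-Asp) of -1.001 for the first and 0.18 for the second column. Over all measured genes the first column changed more in 50.5%. The 5'-Lys ratio lay within 1.5-fold of 0 for 27 of these genes, whichever reading holds. Most measured genes did so too: of 10200, 709 lay at least 1.5-fold below 0 and 458 above it on that array.

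SDHD, the membrane anchor subunit of succinate dehydrogenase, is the member of this group with the most probes behind it. Its signals were 1337 in the first and 3634 in the second column on the 5'-Asp array, against 2773 and 2994 on the 3'-Asp array, with 4102 and 3503 on the 5'-Lys array. The first column of the 5'-Asp array was thus the low one and the other 5 signals lay close together. The log2 ratio was -1.46 on the 5'-Asp and -0.11 on the 3'-Asp array, a difference of -1.35 (SD between 3 probes 0.06), and the probes gave -1.40, -1.35 and -1.29. The other genes named from the extremes rest on 1 probe each, apart from SEC14L1.

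KIFBP, a kinesin-binding protein needed for axon growth, had 1482 and 3657 on the 5'-Asp array, against 3632 and 3661 on the 3'-Asp array, a difference of -1.31. PDE12, a phosphodiesterase that degrades the 2',5'-oligoadenylates of the interferon response, had 1178 and 2509 on the 5'-Asp array, against 2564 and 2145 on the 3'-Asp array, a difference of -1.36. TXNDC15, a protein with a thioredoxin domain, had 85.4 and 240.5 on the 5'-Asp array, against 198 and 227.5 on the 3'-Asp array, a difference of -1.31. In all of these the first column of the 5'-Asp array was the low one. The same held for PUDP, a phosphatase of pseudouridine monophosphate, with 464 and 836 on the 5'-Asp array against 1014 and 711 on the 3'-Asp array, a difference of -1.38. ISX, a homeobox transcription factor of the intestine, had 130.2 and 264 on the 5'-Asp array, against 322 and 285 on the 3'-Asp array, a difference of -1.21. UGT8, which makes galactosylceramide, had 75.6 and 150.3 on the 5'-Asp array, against 184 and 162 on the 3'-Asp array, a difference of -1.19. After normexp background correction 3 of these dim genes were less than 2-fold apart, UGT8 at -0.84, TXNDC15 at -0.97 and ISX at -0.98.

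The lowest differences of all belonged to genes whose ratios lay on opposite sides of 0. ADD3, an adducin that caps actin filaments, had 878 and 1763 on the 5'-Asp array, against 4045 and 2593 on the 3'-Asp array. Its log2 ratio was -1.02 on the 5'-Asp and 0.64 on the 3'-Asp array, a difference of -1.66, and -1.29 on the 5'-Lys array. GPRIN2, an inducer of neurite outgrowth regulated by G proteins, had 268 and 416 on the 5'-Asp array, against 747 and 384 on the 3'-Asp array, a difference of -1.61. NAPEPLD, a phospholipase that releases N-acylethanolamines, had 436 and 667 on the 5'-Asp array, against 1107 and 700.1 on the 3'-Asp array, a difference of -1.29. For DTWD2, an enzyme that modifies uridines of transfer RNAs, the signals were 223 and 389 on the 5'-Asp array, against 439.9 and 329.7 on the 3'-Asp array, a difference of -1.23. TTR, the transporter of thyroxine and retinol-binding protein, had 806 and 1554 on the 5'-Asp array, against 1902 and 1467 on the 3'-Asp array, a difference of -1.34. MAP2K6, a kinase that activates p38, had 444 and 641 on the 5'-Asp array, against 782 and 501 on the 3'-Asp array, a difference of -1.19.

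DHRS2 and TMEM45A had other forms. DHRS2, a short-chain dehydrogenase, had 1299 and 2460.3 on the 5'-Asp array, against 1199 and 965 on the 3'-Asp array, so its difference of -1.25 came from the second column, which was 1.42 higher (log2) on the 5'-Asp array. TMEM45A, a membrane protein, was near balance on the 5'-Asp array with 414 and 441, against 832 and 370.2 on the 3'-Asp array, a difference of -1.27.

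The 37 genes with a higher ratio on the 5'-Asp array were more mixed. The 5'-Asp ratio was farther from 0 for 17 and the 3'-Asp ratio for 20. The first column changed more for 21 and the second for 16, with median column differences of 0.70 and -0.41. The 5'-Lys ratio lay within 1.5-fold of 0 for 32, as it did for most measured genes. In part of the group the first column of the 3'-Asp array was the low signal. ATG4A, a protease that processes the ATG8 proteins of autophagy, had 1064 and 949 on the 5'-Asp array, against 379.8 and 819 on the 3'-Asp array, with 1079 and 983 on the 5'-Lys array, a difference of 1.26. PKIB, an inhibitor of protein kinase A, had 159 and 127 on the 5'-Asp array, against 68.4 and 126 on the 3'-Asp array. Its difference was 1.19, or 0.81 after normexp. FSTL1, a secreted glycoprotein, had 665 and 599 on the 5'-Asp array, against 228 and 477 on the 3'-Asp array, a difference of 1.20.

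RFPL1 and RFPL2, paralogs of the ret finger protein-like family, showed the same form. RFPL2 had 316 and 311 on the 5'-Asp array, against 134.6 and 351 on the 3'-Asp array, a difference of 1.39. RFPL1 had 171 and 169 on the 5'-Asp array, against 78.3 and 188 on the 3'-Asp array, a difference of 1.26, or 0.90 after normexp. Their probes may bind transcripts of both genes, so they may be 1 observation. SEC14L1, a lipid-binding protein, had 1109 and 1006 on the 5'-Asp array, against 541 and 1279 on the 3'-Asp array, but its 2 probes disagreed in size, at 0.40 and 2.33, around the mean of 1.37.

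In other genes of this group the 5'-Asp array differed. FAM8A1, a cofactor of the HRD1 ubiquitin ligase, had 421 and 185 on the 5'-Asp array, against 190.2 and 204 on the 3'-Asp array, a difference of 1.27. ARL3, a small GTPase of cilia, had 284 and 150.2 on the 5'-Asp array, against 145 and 175 on the 3'-Asp array. Its difference was 1.18, or 0.95 after normexp. C1QTNF6, a secreted C1q-like protein, had 213 and 76.0 on the 5'-Asp array, against 154 and 138 on the 3'-Asp array. Its difference was 1.31, or 0.94 after normexp. CEROX1, a long noncoding RNA reported to raise levels of complex I transcripts, had 767 and 328 on the 5'-Asp array, against 853 and 843 on the 3'-Asp array, so its difference of 1.19 lay in the second column of the 5'-Asp array. MALAT1, an abundant nuclear noncoding RNA, had 1011 and 589 on the 5'-Asp array, against 887 and 1123 on the 3'-Asp array, a difference of 1.10.

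ADRA2A, the alpha-2A adrenergic receptor, had the highest difference, 1.79. Its signals were 189.9 and 111 on the 5'-Asp array, against 186 and 380.1 on the 3'-Asp array, with 349.7 and 542 on the 5'-Lys array. The difference lay in the second column, with a column difference of -1.71, against 0.08 in the first. Its log2 ratio was 0.76 on the 5'-Asp and -1.03 on the 3'-Asp array. NBEA, neurobeachin, a scaffold of membrane traffic in neurons, had 271 and 102 on the 5'-Asp array, against 199 and 257 on the 3'-Asp array, a difference of 1.76. ZBTB47, a zinc finger protein, had 522 and 357 on the 5'-Asp array, against 301 and 519 on the 3'-Asp array, a difference of 1.32. For ZNF276, another zinc finger protein, the signals were 279 and 235 on the 5'-Asp array, against 204 and 423 on the 3'-Asp array, a difference of 1.28.

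**Figure D2:**
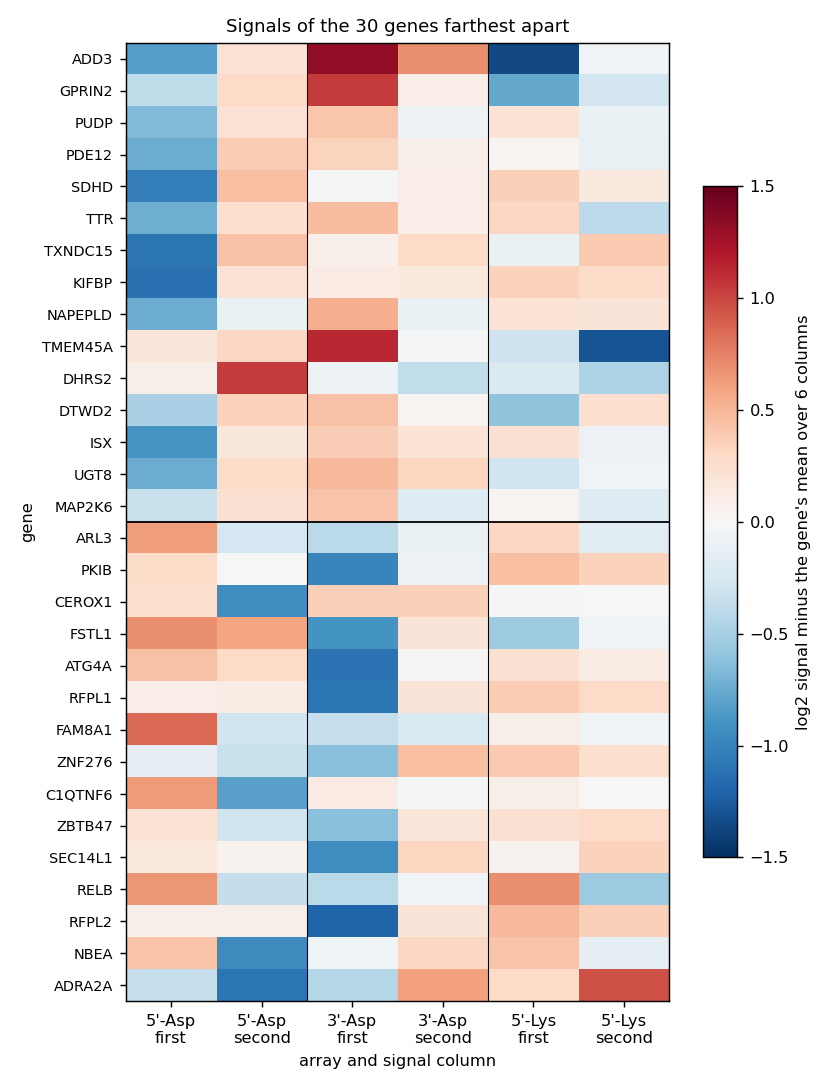
Log2 signal of the 30 genes farthest apart (rows), each column scaled to its median over measured genes and each gene to its mean over 6 columns, on the 5'-Asp, 3'-Asp and 5'-Lys arrays (1 array each, first and second signal column). The upper 15 genes are mostly blue in the first column of the 5'-Asp array, which is the only blue one in KIFBP, and RFPL1, RFPL2, ATG4A and PKIB are blue in the first column of the 3'-Asp array alone.

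The form seen in SDHD and RFPL2 was counted over all genes. A signal was said to stand apart when it lay at least 1.5-fold from the median of the other 5 signals while these lay within a 1.5-fold range. Among the 35 genes lower on the 5'-Asp array, the first column of that array stood apart on the low side for 18 (51.4%), as it did for 118 of all measured genes (1.16%). The comparison chose these 35 genes by 4 of the 6 signals, so the share describes them and tests nothing. KIFBP was 2.53-fold, TXNDC15 2.60-fold and SDHD 2.26-fold below the median of the other signals. Among the 37 genes higher on the 5'-Asp array, the first column of the 3'-Asp array stood apart on the low side for 8 (21.6%), against 64 of all measured genes (0.627%), and the second column of the 5'-Asp array for 5 (13.5%), against 50 of all (0.49%). Over all measured genes, 147 stood apart in the first and 79 in the second column of the 5'-Asp array, 99 and 3 on the 3'-Asp array, and 408 and 48 on the 5'-Lys array.

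**Figure D3:**
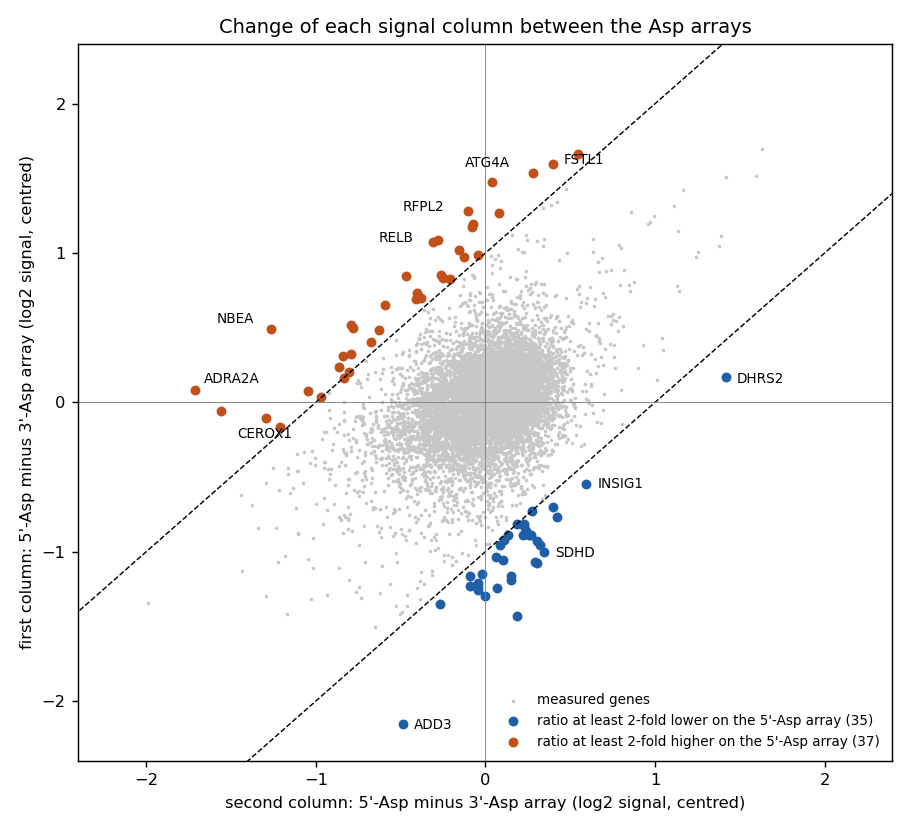
Change of the second (horizontal axis) and first (vertical axis) signal column between the Asp arrays, 5'-Asp minus 3'-Asp, in log2 signal centred on each column's median. Blue points (35 genes with a lower ratio on the 5'-Asp array) lie below 0 on the vertical axis except DHRS2, and orange points (37 genes with a higher ratio) spread over both axes.

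Gene lists gave a second view. Of 43 lists with at least 5 measured members, 34 had a median difference within 0.15 of 0. The histone and cell cycle lists had the lowest medians. With columns centred on their medians, these differences lay more in the second column, unlike those of the 35 genes above. For G1/S the columns were close once quantile scaled, at -0.15 from the first alone and -0.18 from the second alone. A higher second column was not particular to these lists, as its median difference was 0.19 for the proteasome list.

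Replication-dependent histone genes are transcribed in S phase from clusters on chromosomes 6 and 1 and supply the core and linker histones of new chromatin. Of 56 measured histone genes, 52 had a lower ratio on the 5'-Asp array, 15 by at least 1.5-fold and none higher by that much, against 2.75% and 2.9% of all measured genes. Of all measured genes 50.8% had a lower ratio of any size. The median difference was -0.39, with a median ratio of 0.03 on the 5'-Asp and 0.39 on the 3'-Asp array, and 0.30 on the 5'-Lys array. All 56 ratios lay above 0 on the 3'-Asp array, while 25 lay below 0 on the 5'-Asp array. Both columns were higher on the 5'-Asp array at the median, the first by 0.21 and the second by 0.59 (log2), and the second column was higher for 55 of 56 genes. With the first column alone, arrays quantile scaled, the median difference turned to 0.14. Histone genes are near-identical in sequence within a class and 48 of the 56 lie on chromosome 6, so probes may share transcripts and the members are not separate observations.

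The linker, H3 and H4 genes had lower medians than the H2A and H2B genes, a difference that was not tested. All 4 H1 genes were at least 1.5-fold lower, with a median of -0.64, as were 6 of 12 H3 genes (median -0.61) and 5 of 12 H4 genes (median -0.41). None of 13 H2A genes (median -0.35) or 15 H2B genes (median -0.21) was. H4C13 had 2161 and 2379 on the 5'-Asp array, against 2467 and 1558 on the 3'-Asp array, a difference of -0.82 (SD between 2 probes 0.01). H4C3 had 117443 and 179826 on the 5'-Asp array, against 167138 and 149529 on the 3'-Asp array, a difference of -0.79. H3C11 had 674 and 719.9 on the 5'-Asp array, against 811 and 521 on the 3'-Asp array, a difference of -0.75. At the other end H2AC19 had 7745 and 5522 on the 5'-Asp array, against 4102 and 3595 on the 3'-Asp array, a difference of 0.28.

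The lists share known promoter elements, and the windows before the start sites of members low in them are printed to show where these elements lie. Sequences are from RefSeq on GRCh38.p14, 250 bases before the start, 5′ to 3′ on the gene's strand. Capitals mark the TATA box (TATAAA) and the CCAAT box in both histone genes. H4C13 lies at chr6:27873535-27873784 on the minus strand and H3C10 at chr6:27809801-27810050 on the plus strand. They are the lowest members whose window holds both motifs, and H3C10, with a difference of -0.74, was chosen for display after its values were seen, as were the motifs and the other windows printed here.
H4C13: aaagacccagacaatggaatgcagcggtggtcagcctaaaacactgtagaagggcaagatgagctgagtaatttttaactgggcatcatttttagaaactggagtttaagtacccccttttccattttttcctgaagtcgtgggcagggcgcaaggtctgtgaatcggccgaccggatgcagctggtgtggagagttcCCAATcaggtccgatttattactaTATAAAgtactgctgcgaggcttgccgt
H3C10: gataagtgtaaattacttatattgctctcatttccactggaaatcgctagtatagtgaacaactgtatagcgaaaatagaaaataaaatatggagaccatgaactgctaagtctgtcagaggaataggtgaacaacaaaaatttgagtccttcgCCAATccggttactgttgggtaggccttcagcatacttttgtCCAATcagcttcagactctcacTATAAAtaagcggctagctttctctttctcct
In H4C13 the TATA box begins 28 and the CCAAT box 52 bases before the start, and in H3C10 the TATA box begins 32 and the CCAAT boxes 54 and 96 bases before it. Searched on either strand, TATAAA was found in 33 of 51 measured histone genes with a window (64.7%) and in 5.26% of the 8305 measured genes with one. The CCAAT box was found in 86.3%, against 37.2%. A match says only that these letters are in the window.

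Genes of mitosis followed the histones. Of 65 measured G2/M genes, 59 had a lower ratio on the 5'-Asp array, against 50.8% of all measured genes, and the median difference was -0.36. By at least 1.5-fold 10 (15.4%) were lower and none higher, against 2.75% and 2.9% of all measured genes. The median ratio (first over second column) lay below 0 on both Asp arrays, with a value of -0.55 on the 5'-Asp and -0.16 on the 3'-Asp array, and -0.60 on the 5'-Lys array. At least 1.5-fold below 0 were 31 of the 65 genes on the 5'-Asp array, 2 on the 3'-Asp array and 39 on the 5'-Lys array, while of all measured genes 4.35%, 2.56% and 6.95% were. The 2 genes on the 3'-Asp array are thus near the share of all genes. The second column was higher on the 5'-Asp array for 63 of 65 genes, with a median of 0.26, and the first column lower for 45, with a median of -0.09. With the arrays quantile scaled, the median difference of the list was -0.10 from the first column alone and -0.22 from the second alone. Over all measured genes the second column was higher for 55.2% and the first lower for 46.5%.

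TTK, a kinase of the spindle checkpoint, had 442 and 735 on the 5'-Asp array, against 618 and 626 on the 3'-Asp array, a difference of -0.73. BUB1, of the same checkpoint, had 1337 and 1743 on the 5'-Asp array, against 1889.6 and 1505.5 on the 3'-Asp array, a difference of -0.73. SGO1, which protects cohesion at centromeres, had 244 and 431 on the 5'-Asp array, against 295 and 327 on the 3'-Asp array, a difference of -0.69 (SD between 2 probes 0.45), or -0.38 with the brightest probe. ANLN, an actin-binding protein of the cleavage furrow, went against the list with 611 and 942 on the 5'-Asp array, against 317 and 708 on the 3'-Asp array, a difference of 0.52. The proliferation marker MKI67 had 460.3 and 589.6 on the 5'-Asp array, against 534 and 606 on the 3'-Asp array, a difference of -0.19 (SD between 3 probes 0.21).

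Mitotic promoters often hold a cell cycle homology region (TTTGAA) with CCAAT boxes, in capitals below for the lowest members of the G2/M list whose window holds both. SPC25, a subunit of the NDC80 kinetochore complex, lies at chr2:168890431-168890680 and KIF18A, a kinesin of chromosome alignment, at chr11:28108157-28108406, both on the minus strand. Their differences were -0.67 and -0.52.
SPC25: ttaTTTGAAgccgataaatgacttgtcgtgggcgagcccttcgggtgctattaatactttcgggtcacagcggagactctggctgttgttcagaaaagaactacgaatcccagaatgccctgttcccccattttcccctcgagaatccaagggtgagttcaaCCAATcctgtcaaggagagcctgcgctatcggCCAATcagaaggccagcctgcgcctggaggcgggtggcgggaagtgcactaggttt
KIF18A: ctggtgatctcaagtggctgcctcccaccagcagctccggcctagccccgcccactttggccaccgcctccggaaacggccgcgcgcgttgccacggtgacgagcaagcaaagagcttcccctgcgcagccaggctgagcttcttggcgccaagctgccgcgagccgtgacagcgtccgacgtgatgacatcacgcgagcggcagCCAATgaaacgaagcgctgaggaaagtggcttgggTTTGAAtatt
TTTGAA begins 247 bases before the start in SPC25, upstream of its CCAAT boxes at 88 and 56. In KIF18A it begins 10 bases before the start, downstream of the CCAAT box at 45. Whether either match is a working element was not tested. On either strand it was found in 27 of 55 G2/M windows (49.1%), against 8.16% of measured genes, and the CCAAT box in 69.1%, against 37.2%. The 6 letters also occurred in 33.3% of histone windows.

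DNA replication genes showed the same pattern. Of 49 measured G1/S genes, 44 had a lower ratio on the 5'-Asp array, against 50.8% of all measured genes, with a median difference of -0.33. By at least 1.5-fold 5 (10.2%) were lower and none higher, against 2.75% and 2.9% of all measured genes. Median ratios were -0.54 on the 5'-Asp, -0.21 on the 3'-Asp and -0.52 on the 5'-Lys array. The second column was higher on the 5'-Asp array for 46 of 49, and the first lower for 34, against 55.2% and 46.5% of all measured genes. Quantile scaled, the first column alone gave a median of -0.15 and the second alone -0.18. RRM2, the small subunit of ribonucleotide reductase, had 932 and 2582 on the 5'-Asp array, against 1718 and 2315 on the 3'-Asp array, a difference of -1.06. PCNA, the sliding clamp of DNA polymerases, had 6478 and 13453 on the 5'-Asp array, against 9601 and 11936 on the 3'-Asp array, a difference of -0.76 (SD between 2 probes 0.06). PRIM1, a primase subunit, had 1480.3 and 2333 on the 5'-Asp array, against 1957 and 1947 on the 3'-Asp array, a difference of -0.68. MCM4 and CDC45, of the replicative helicase, lay slightly on the other side at 0.11 and 0.12, and UHRF1, which maintains DNA methylation, at 0.16.

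PCNA is the lowest G1/S gene whose window holds an E2F site, searched as GCGGGAAA or GCGCCAAA and printed in capitals. It lies at chr20:5126623-5126872 on the minus strand.
PCNA: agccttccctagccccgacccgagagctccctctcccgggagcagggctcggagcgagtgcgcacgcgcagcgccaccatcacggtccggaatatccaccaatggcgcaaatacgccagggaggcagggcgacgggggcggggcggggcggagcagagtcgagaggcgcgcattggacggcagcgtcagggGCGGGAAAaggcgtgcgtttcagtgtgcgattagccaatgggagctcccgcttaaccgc
The site begins 59 bases before the start. Such a site was found in 15 of 41 G1/S windows (36.6%), against 3.38% of measured genes. No factor's binding was measured.

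DNA repair genes were lower too, 28 of 35 with a median of -0.25, 3 of them by at least 1.5-fold, against 2.75% of all measured genes. H2AX, the histone variant phosphorylated at DNA breaks, had 12872 and 23851 on the 5'-Asp array, against 21693 and 18976 on the 3'-Asp array, a difference of -1.10. BLM, a helicase, had 613 and 1069 on the 5'-Asp array, against 834 and 909 on the 3'-Asp array, a difference of -0.69.

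**Figure D4:**
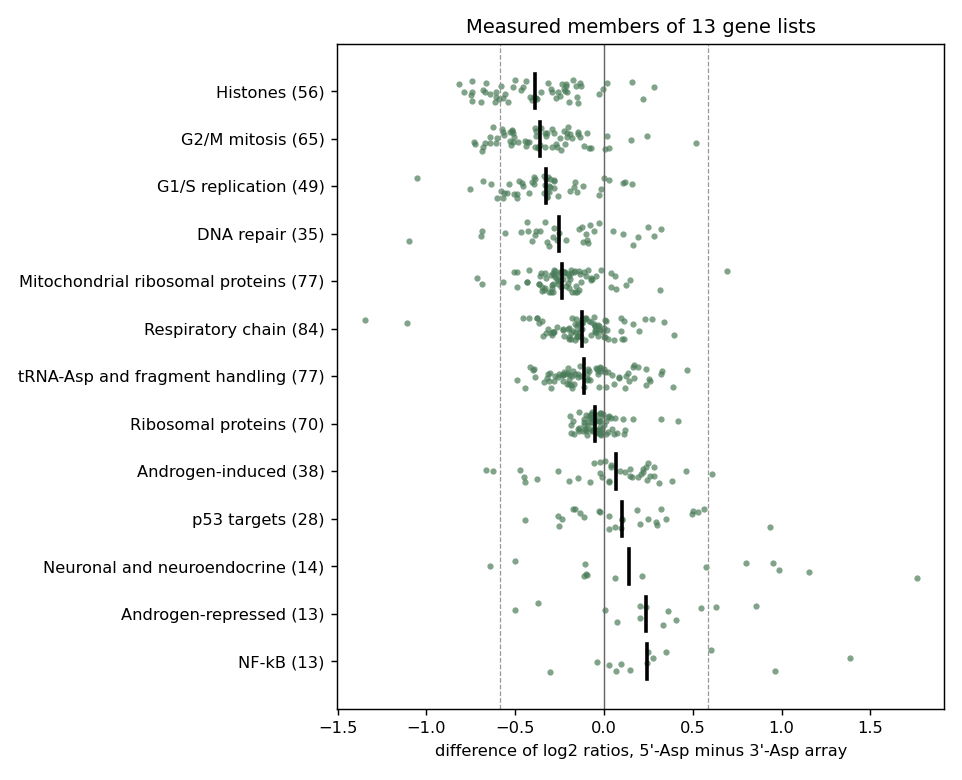
Difference of log2 ratios (5'-Asp minus 3'-Asp array) of each measured member (points) of 13 gene lists, with the list median as a black bar, the number of measured members in brackets and 1.5-fold differences as dashed lines. The histone, G2/M and G1/S lists have medians of -0.39, -0.36 and -0.33, and ribosomal proteins lie close to 0 at -0.05.

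Mitochondrial genes encoded in the nucleus had smaller differences shared by many members. Of 77 mitochondrial ribosomal protein genes, 69 had a lower ratio on the 5'-Asp array, with a median of -0.24, but 2 by at least 1.5-fold and 1 higher by that much, close to the shares of all measured genes (2.75% and 2.9%). The ratio was below 0 for 54 on the 5'-Asp and for 20 on the 3'-Asp array. The second column was higher on the 5'-Asp array for 69 of 77, with a median of 0.21, while the median of the first column was -0.001. MRPL45 had 2782 and 4839 on the 5'-Asp array, against 4134 and 4433 on the 3'-Asp array, a difference of -0.71 (SD between 2 probes 0.16), and MRPL12 had 7818 and 8453 on the 5'-Asp array, against 9901 and 7283 on the 3'-Asp array, a difference of -0.57. MRPS27, the highest, was at 0.70, with an SD between 2 probes of 0.69, and at 0.27 after normexp and 0.20 with the brightest probe. Cytoplasmic ribosomal protein genes had a median of -0.05 over 70 genes, none of them 1.5-fold apart.

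Of 84 respiratory chain genes, 66 were lower on the 5'-Asp array with a median of -0.12. By at least 1.5-fold 2 were lower, a share close to the 2.75% of all measured genes: SDHD, and LYRM7, an assembly factor of complex III. LYRM7 had 181 and 452 on the 5'-Asp array, against 348 and 406 on the 3'-Asp array, a difference of -1.11, or -0.94 after normexp. SDHC, the partner of SDHD in the membrane anchor, lay on the other side at 0.34 (SD between 3 probes 0.24) and at 0.10 with the brightest probe.

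A list of genes of tRNA modification, of tRNA cleavage and of small RNA handling had small differences. None of its 77 measured members was 1.5-fold apart, and the median was -0.11. The list is not complete: DTWD2, the tRNA-modifying enzyme named above with a difference of -1.23, is not in it. ANG, angiogenin, had 725 and 999 on the 5'-Asp array, against 710.4 and 706 on the 3'-Asp array, a difference of -0.49 that lay in the second column. Its inhibitor RNH1 was at -0.10. QTRT1 and QTRT2, the subunits of the enzyme that puts queuine into the anticodon of tRNA-Asp, were at -0.04 and 0.04. TRDMT1, the methyltransferase of tRNA-Asp, was below the signal filter.

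Higher ratios on the 5'-Asp array were found in smaller lists. Of 13 measured NF-kB genes, 11 were higher, 3 of them by at least 1.5-fold, against 2.9% of all measured genes, with a median of 0.24. RELB, the partner of p52 in the noncanonical pathway, had 1015 and 487 on the 5'-Asp array, against 500.1 and 634 on the 3'-Asp array, a difference of 1.39. BIRC3, a ubiquitin ligase induced by NF-kB, had 364 and 186 on the 5'-Asp array, against 174 and 175 on the 3'-Asp array, a difference of 0.96. MAP3K14, the kinase that starts the noncanonical pathway, had 790.2 and 484 on the 5'-Asp array, against 670 and 629.6 on the 3'-Asp array, a difference of 0.60. TNFRSF12A, a receptor that signals to MAP3K14, had ratios of 1.78, 1.43 and 1.90 on the 5'-Asp, 3'-Asp and 5'-Lys array, and a difference of 0.35.

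Neuronal genes differed one by one. At 1.5-fold, 5 of 14 measured genes were higher and 1 was lower, against 2.9% and 2.75% of all measured genes, and the median of 0.14 changed sign with some settings. Besides NBEA, LRRN1 had 572 and 220.1 on the 5'-Asp array, against 478 and 413 on the 3'-Asp array, a difference of 1.15. MAPT, the microtubule protein tau, had 615 and 325 on the 5'-Asp array, against 414 and 438 on the 3'-Asp array, a difference of 0.98. NEFL, the neurofilament light chain, had 149.96 and 244 on the 5'-Asp array, against 57.8 and 184 on the 3'-Asp array, a difference of 0.95 that was 0.56 after normexp background correction. CEND1 went the other way at -0.64. Of 6 measured potassium channel genes, 3 were at least 1.5-fold higher and none lower, again against 2.9% and 2.75%, and the median was 0.38 (0.12 with the brightest probe and 0.105 with no signal filter). KCNS3 had 385 and 484 on the 5'-Asp array, against 222 and 532 on the 3'-Asp array, a difference of 0.92, KCND2 had 111 and 180.4 on the 5'-Asp array, against 97.8 and 268 on the 3'-Asp array, a difference of 0.73, and KCNN2 was at 0.61.

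Androgen-repressed genes had a median of 0.23 over 13 genes, 2 of them at least 1.5-fold higher, against 2.9% of all measured genes. CAMK2N1, an inhibitor of CaM kinase II, had 5384 and 2185 on the 5'-Asp array, against 3745 and 2782 on the 3'-Asp array, a difference of 0.86. Androgen-induced genes had a median of 0.07 over 38 genes. The kallikreins KLK3 (prostate-specific antigen) and KLK2 had low ratios on both arrays, and their levels differed instead. KLK3 had 7417 and 12016 on the 5'-Asp array, against 2868 and 5613 on the 3'-Asp array, with both columns higher on the 5'-Asp array and a difference of ratios of 0.26 (SD between 2 probes 0.25). KLK2 was at 0.28 (SD between 2 probes 0.45). TMPRSS2 was at 0.38 and FKBP5, a chaperone induced by androgen, at -0.45.

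**Figure D5:**
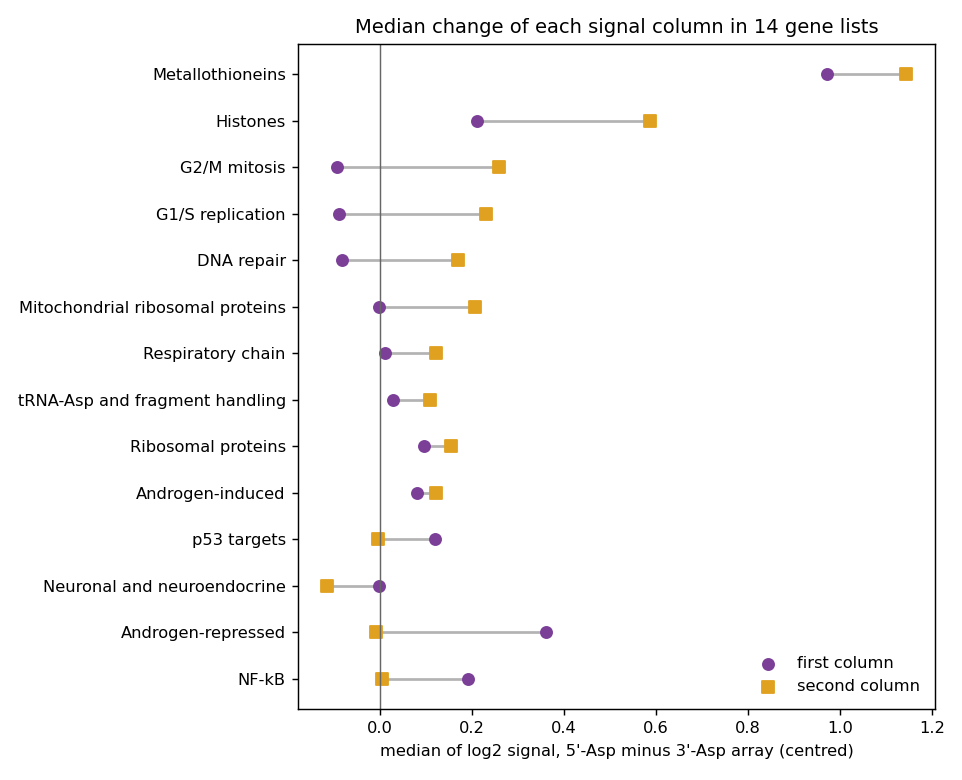
Median difference of log2 signal, 5'-Asp minus 3'-Asp array, of the measured members of 14 gene lists in the first (circles) and second (squares) signal column, each centred on the column's median over measured genes. The squares lie right of the circles for the histone, cell cycle, DNA repair and mitochondrial lists. They also do so for the tRNA-Asp, ribosomal protein, androgen-induced and metallothionein lists, and both lie near 1 for the metallothioneins.

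Metallothioneins, small proteins that bind zinc and copper, differed between the arrays in both columns at once. Their median difference of ratios was -0.10 over 13 listed genes, some of them zinc transporters, with none 1.5-fold apart, while the first column was 0.97 and the second 1.14 higher (log2) on the 5'-Asp array. MT1X had 15133 and 18139 on the 5'-Asp array, against 9337 and 8610.2 on the 3'-Asp array. Over all measured genes, 38 were at least 1.5-fold higher in both columns of the 5'-Asp array and 67 lower in both. Of the 38, 9 were of the metallothionein list and 3 were histone genes, lists with 13 and 56 of the 10200 measured genes. MT1B and MT1L had nearly the same signals, 25461.6 and 22847 against 26072.5 and 23363.3 on the 5'-Asp array. Probes may share transcripts here too, so the 9 may not be separate observations.

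Single genes of stress and sterol control complete the comparison. INSIG1, which holds the SREBP activator SCAP in the endoplasmic reticulum, had 1599.8 and 5217 on the 5'-Asp array, against 2421 and 3621 on the 3'-Asp array, ratios of -1.72 and -0.58, a difference of -1.14. GDF15, a stress-induced cytokine, had 206738 and 59855 on the 5'-Asp array, against 85664 and 47928 on the 3'-Asp array, ratios of 1.77 and 0.84, a difference of 0.93. MYC was at 0.76 (SD between 2 probes 0.67), but at 0.18 after normexp and 0.28 with the brightest probe, and OASL, an interferon-induced gene, at 0.88 with 209 and 124 on the 5'-Asp array, against 189.9 and 209 on the 3'-Asp array. CDKN1A, the cyclin-dependent kinase inhibitor p21, was at 0.30, and the p53 target list at a median of 0.10 over 28 genes.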

How the data were processed

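Total RNA of LNCaP cells was measured on two-colour arrays by a service company, per the labels, with extraction software not given in the sources used here. Both deposited intensity columns of an array carry the word raw in their names, yet all values were positive and their medians were close. The deposited signed fold changes, treated as a score, equal the first over the second column times 1 constant per array (largest other log2 deviation 1.1e-06), with medians of 1.067 and 1.051 on the 5'-Asp and 3'-Asp arrays. Their direction stays unknown.

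Of 34183 probes 56 were controls and 6079 had no gene name. Older platform symbols were updated through accessions to RefSeq for 25515 probes, 2179 were current and 354 were kept though not current. Of 1567 unnamed probes past the signal filter, 3 were at least 2-fold higher and 4 lower on the 5'-Asp array.

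Intensities were used as deposited, on the log2 scale, with no p-value since each group is 1 array, whose number limits the precision. Column differences were centred on each column's median over measured genes. Alternatives used limma 3.58.1 in R 4.3.3, and the other steps Python 3.11.15, numpy 2.4.6 and pandas 2.3.3. The count of genes at least 2-fold apart was tested on simulated data, with changes set in the first column of the 5'-Asp array. The other steps were not tested in this way. Named genes were the 15 lowest and 15 highest differences with all probes on 1 side of 0 that stayed 1.5-fold apart after loess and normexp, without uncharacterised loci, then 3 per end of each of 45 lists, and 20 single genes. Members and lists were chosen with earlier results of these data known, and the count of signals standing apart, the motif search and the windows after values were seen.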

Additional observations from a re-analysis of the deposited data

Results flagged for a closer look

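The ratios of 11 of the 30 genes named from the extremes lay on opposite sides of 0 on the Asp arrays, by at least 0.32 on the log2 scale on each. These genes were chosen by the difference of the same ratios, and that choice favours opposite sides, so the count describes them only. The share of all measured genes on opposite sides was not counted. The difference between the arrays was not tested, since each knockdown is 1 array. With a ratio below 0 on the 5'-Asp array and above 0 on the 3'-Asp array, the differences were -1.66 for ADD3, -1.61 for GPRIN2, -1.38 for PUDP, -1.34 for TTR, -1.29 for NAPEPLD, -1.23 for DTWD2 and -1.19 for MAP2K6. With a ratio above 0 on the 5'-Asp array and below 0 on the 3'-Asp array, they were 1.79 for ADRA2A, 1.76 for NBEA, 1.39 for RELB and 1.32 for ZBTB47. By the column names each of these signs turns. Each of these genes rests on 1 probe.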

How the results depend on the processing

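The number of genes at least 2-fold apart depends on dim genes. It was 37 higher and 35 lower on the 5'-Asp array as reported, 20 and 20 after normexp with an offset of 50, 613 and 608 with no signal filter, 9 and 14 when genes below the 75th percentile were left out, and 296 and 280 at 1.5-fold. Reading the direction by the column names swaps 37 and 35. Loess kept all 37 and all 35 genes. The deposited folds kept them by construction, since they are the same ratio times 1 constant per array. The brightest probe kept 25 of the 37 and 32 of the 35. Normexp kept 20 of the 37 and 20 of the 35. Lower genes numbered 55 with the first column alone and 15 with the second column alone. The genes farther from 0 on the 5'-Asp array, on the 3'-Asp array and on opposite sides numbered 24, 16 and 12 after normexp, 648, 573 and 596 with no filter and 17, 6 and 4 at the 75th percentile. List medians moved most with 1 column alone. With the first column alone they were 0.14 for histones, which is reversed, -0.15 for G1/S, -0.10 for G2/M, -0.10 for DNA repair, -0.10 for mitochondrial ribosomal proteins, 0.83 for metallothioneins and -0.0043 for neuronal genes. With the second column alone they were -0.18 for G1/S, -0.22 for G2/M, 0.034 for NF-kB, 0.063 for androgen-repressed and -0.10 for androgen-induced genes, 0.011 for the respiratory chain, -1.04 for metallothioneins and -0.078 for LNCaP markers. Neuronal genes were at -0.041 with no filter and 0.43 with the brightest probe, and metallothioneins at -0.25 at the 75th percentile. Single genes turned sign with the second column alone (ADD3 0.52, ATG4A -0.27, BIRC3 -0.22, CEND1 0.015, FSTL1 -0.42, GDF15 -0.20, KIFBP 0.0048, NEFL -0.54, PKIB -0.16) and with the first column alone (CEROX1 -0.089, DHRS2 0.15). These settings hold 1 column fixed by construction. Further list medians moved: heat shock 0.13 and IGF and activin -0.14 with the first column alone, and IGF and activin 0.18 with the second; potassium channels were at 0.12 with the brightest probe and 0.105 with no filter. The remaining 361 list medians under an alternative stayed within the probe SD of 0.14. After normexp 24 single genes named here moved by more than the probe SD, without a change of sign. No paired analysis was possible because each knockdown is 1 array.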
